A study of Caenorhabditis elegans with 12 samples.

Results

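The hedgehog-related and patched-related genes of Caenorhabditis elegans were described in larvae of the third larval stage (L3) grown at 15 °C. Members were taken by gene symbol alone, as every wrt, grl, grd, hog, qua, ptc or ptr gene with a number in the deposited table. This gave 87 of 23515 genes. Of these, 61 belong to the ligand-like families: 10 warthog (wrt), 32 ground-like (grl) and 17 groundhog (grd) genes, hog-1 and qua-1. The other 26 are receptor-like: 3 patched (ptc) and 23 patched-related (ptr) genes. Polyadenylated RNA of whole larvae was sequenced in 12 libraries, 4 each of the N2 wild type, of the strain RW364 with unc-120(st364) and of the strain XA8001 with fhod-1(tm2363). UNC-120 is a transcription factor, the serum response factor of worms, and FHOD-1 is a formin, which builds filaments of actin. Both act in body-wall muscle, and the series asks how they promote the development of striated muscle. All 3 groups shared the food source, the temperature and the stage label, and embryos from adult worms were plated and grown to L3. The source-name label exchanges the strain names of the mutants, and groups are those of the genotype, strain and description labels. The labels say no more than that replicates are separate samples, so p-values measure only the spread between these samples, which may be technical.

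In flies and vertebrates, Hedgehog is a secreted signal that is cut by its own C-terminal Hog domain, joined to cholesterol and received by Patched. Nematodes lack a typical Hedgehog and the transducer Smoothened, but carry a large set of related secreted proteins and many relatives of Patched. Warthog, groundhog, hog-1 and quahog (qua-1) proteins combine an N-terminal domain of their own family with a Hog domain in some members, and ground-like proteins have a related N-terminal domain without one. Patched and patched-related proteins span the membrane many times and hold a sterol-sensing domain. Many genes of both kinds are active in the hypodermis and other epithelia that make cuticle, and their transcripts are known to rise and fall with each molt.

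Levels are the deposited values, which are scaled by gene length like TPM, a share of a library's transcripts in which a long and a short gene count alike. Every library summed to 638200, so the values carry no read total. Values multiplied by exonic length piled up at 1 step per library among rare genes. Taken as the worth of 1 read, that step gave an estimated depth of 19200000 to 28000000 reads. On this estimate a tested member had between 7.7 reads (grd-17 in its lowest library) and 17721 (wrt-10 in its highest). These read numbers are estimates, so errors below are taken from replicates only. The exonic lengths used come from an annotation whose gene bounds differ from the deposited ones for many genes. The libraries also differed along gene length. The slope of a library's log2 values on log2 length, relative to the mean library, ran from -0.26 in unc-120(st364) replicate 2 to 0.15 in fhod-1(tm2363) replicate 4, with every group on both sides of 0. Tested receptor-like members are long (median exonic length 2988 bases) and tested ligand-like members short (972 bases), so values corrected for length by loess are given beside the deposited ones where they matter. Of the mutated genes, fhod-1 was at 5.63 ± 1.09 (SD, n = 4) in wild type and in the fhod-1(tm2363) group at 4.79 ± 1.48, which did not tell these groups apart (limma adjusted p = 0.646). A gene total does not check an allele that removes only part of a gene. The gene unc-120 rose from 13.5 ± 2.81 in wild type to 33.5 ± 8.04 in unc-120(st364) (log2 fold change 1.25, SE 0.18, limma adjusted p = 0.00163). Markers of hypodermis and seam, muscle, intestine, pharynx and neurons were present in every library. In whole larvae, fewer cells of a type and less RNA per cell cannot be told apart.

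Ligand-like genes held both the highest and the lowest levels of the family. Over the 12 libraries, 31 members had a mean level of at least 10 and 6 of at least 100, and all 6 were ligand-like. They were wrt-10 with a mean of 325, grd-5 with 237, grd-10 with 219.5, grl-21 with 125, grl-16 with 121 and wrt-1 with 103. The highest receptor-like gene, ptr-4, had a mean of 79.4, and the next were ptr-23 (47.1), ptc-3 (37.1), ptr-14 (36.6) and ptc-1 (33.4). The order among neighbours was loose. The ranges of wrt-10 (233 to 449) and grd-5 (151 to 477) overlapped, as did those of grl-21 (83.1 to 171) and grl-16 (63.5 to 221). The lowest value of wrt-10 was above the highest value of any member outside the top 3. All members together took 0.309% to 0.439% of a library's total.

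**Figure D1:**
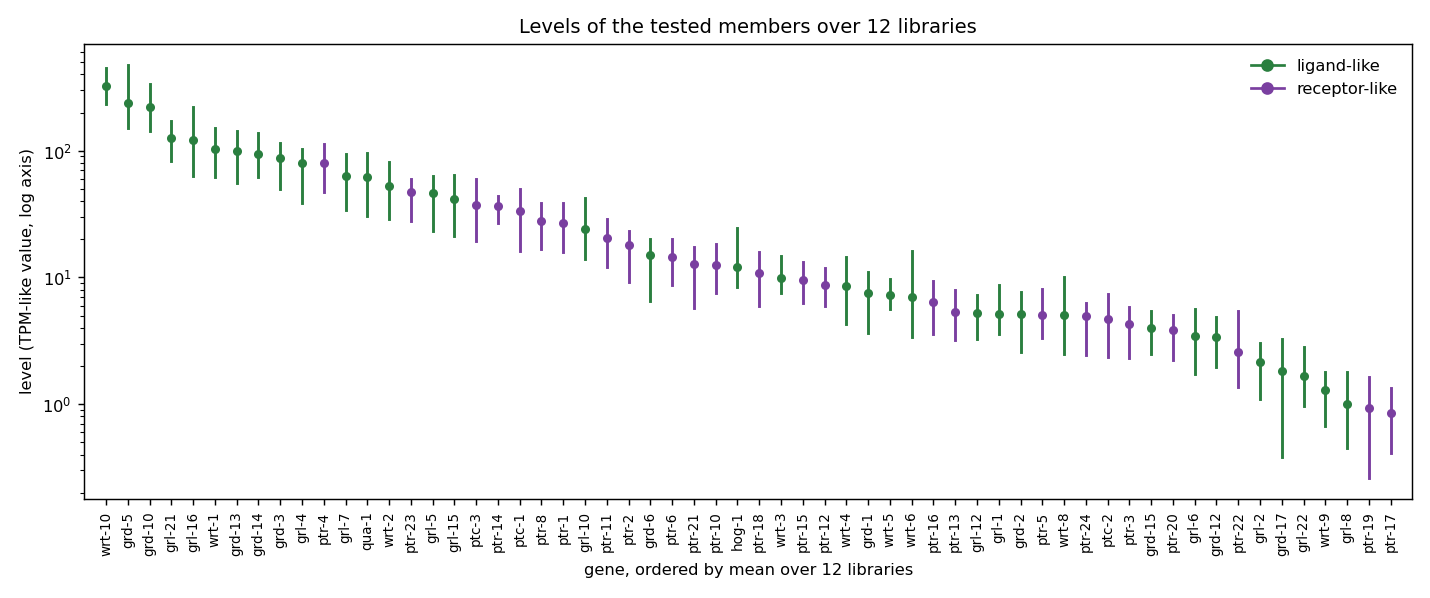
Mean level of the 60 tested members over 12 libraries (points, log axis, deposited TPM-like values), with lines from the lowest to the highest library, ordered by the mean. Ligand-like genes (green) hold the first 10 places, down to grl-4 at 80.1, and ptr-4 at 79.4 is the first receptor-like gene (purple).

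Nearly all receptor-like genes passed the filter on low levels, and ligand-like genes passed at a share near that of all genes. A member was tested when its level reached 1 in at least 4 of the 12 libraries, and 60 of 87 did. These were 25 of 26 receptor-like genes and 35 of 61 ligand-like genes: 9 of 10 wrt, 13 of 32 grl, 11 of 17 grd, hog-1 and qua-1. Over all genes, 12831 of 23515 were tested. All 27 others stayed below 1 in every library, and none of them was at 0 in all 12. Of the 26 untested ligand-like genes, 13 were above 0 in every library. The 19 untested grl genes had means from 0.00456 (grl-28) to 0.620 (grl-14). Among them was grl-18 at 0.219, whose reporter marks certain glia. The 6 untested grd genes ran from 0.0131 (grd-8) to 0.465 (grd-16), wrt-7 was at 0.0125, and ptr-9 at 0.290 was the only untested receptor-like gene. On the depth estimate above, grl-28 had at most 0.8 reads in a library and grd-11 at most 89.3, so the lowest of these genes lay near the limit of detection. Both annotated pseudogenes of the family are ligand-like, grd-17 (tested) and grl-32 (untested). Whether reads were shared between related copies was not tested.

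The low ligand-like genes were concentrated on chromosome V. That chromosome holds 24.7% of protein-coding genes, and it carries 30 of the 61 ligand-like genes, 17 of the 26 untested ones among them. Receptor-like genes lie mainly on chromosomes II (9 of 26) and I (7 of 26). Pairs of members less than 10 kb apart numbered 10, and all 16 genes in them were ligand-like. A run of 5 on chromosome V, grl-28 to grl-32, was untested throughout. In contrast, grd-13, grd-3 and grd-10 lie in a row on the plus strand of chromosome IV, 151 and 601 bases apart, and had means of 99.3, 87.5 and 219.5. The neighbours wrt-1 and wrt-10 end 53 bases from each other on opposite strands of chromosome II, and both were among the 6 highest members. Positions are those of the deposited table, 1-based on WBcel235.

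Among the warthog genes, whose proteins are secreted and can carry a Hog domain, wrt-10 (WBGene00006956, chromosome II, 7533300 to 7534563, minus strand) was highest. Its levels, given here and below in the order of replicates 1 to 4, were 313, 294, 435 and 312 in the wild-type libraries, 449, 275, 367 and 339 in the unc-120(st364) libraries and 343, 233, 255 and 285 in the fhod-1(tm2363) libraries. Wild-type replicate 3 stood above the other wild-type libraries, and the 3 groups overlapped. Its neighbour wrt-1 (WBGene00006947, chromosome II, 7531145 to 7533246, plus strand) was at 137, 62.0, 117 and 92.2 in the wild-type libraries, 151, 99.5, 111 and 102 in the unc-120(st364) libraries and 105, 86.3, 79.3 and 97.7 in the fhod-1(tm2363) libraries. Wild-type replicate 2 was the lowest library for wrt-1 and unc-120(st364) replicate 1 the highest.

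A reporter of wrt-2 (WBGene00006948, chromosome X, 3092395 to 3094448, minus strand, overlapped on the other strand by pccb-1) is known from the seam, the row of stem-like hypodermal cells. Its levels were 54.9, 30.5, 66.7 and 29.6 in the wild-type libraries, 58.0, 28.8, 80.5 and 71.9 in the unc-120(st364) libraries and 49.5, 48.6, 35.05 and 81.2 in the fhod-1(tm2363) libraries. Each group held both low and high libraries, with a ratio of highest to lowest of 2.80 within unc-120(st364). Of all 60 tested members, wrt-6 (WBGene00006952, chromosome X, 3480251 to 3483649, plus strand) varied most within groups, with a residual SD of 0.66 on the log2 scale. It was at 16.02, 3.59, 8.26 and 3.67 in the wild-type libraries, 8.85, 3.38, 8.18 and 8.004 in the unc-120(st364) libraries and 5.16, 6.22, 3.82 and 8.75 in the fhod-1(tm2363) libraries. Wild-type replicate 1 was more than 4 times as high as replicates 2 and 4 of the same group. The gene wrt-4 (WBGene00006950, chromosome X, 15752258 to 15757269, minus strand) had the same high and low wild-type libraries, with 14.5, 4.72, 11.6 and 4.32. In unc-120(st364) it was at 10.2, 4.95, 12.7 and 10.9 and in fhod-1(tm2363) at 6.99, 7.03, 5.07 and 10.4. The remaining tested warthog genes were lower in mean than wrt-2, from wrt-9 at 1.28 to wrt-3 at 9.87.

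The ground-like genes were led by grl-21 (WBGene00001730, chromosome IV, 10737474 to 10738189, plus strand), reported to act with the receptor-like ptr-24 in the control of mitochondria and fat. Its levels were 83.1, 158, 105 and 171 in the wild-type libraries, 131, 100.4, 121 and 124 in the unc-120(st364) libraries and 102, 143, 131 and 135 in the fhod-1(tm2363) libraries. Wild-type replicate 1, the highest library for 14 of the 35 tested ligand-like genes, was the lowest here. The gene grl-16 (WBGene00001725, chromosome I, 572177 to 575120, minus strand) was at 221, 93.7, 103 and 115.2 in the wild-type libraries, 136, 63.5, 122 and 97.3 in the unc-120(st364) libraries and 134, 174, 68.2 and 119.3 in the fhod-1(tm2363) libraries. Here wild-type replicate 1 was the highest of all 12 libraries and unc-120(st364) replicate 2 the lowest. Next came grl-4 (WBGene00001713, chromosome IV, 7309838 to 7310760, minus strand), at 96.4, 103, 85.8 and 87.3 in the wild-type libraries, 92.6, 38.6, 92.5 and 78.4 in the unc-120(st364) libraries and 60.3, 85.4, 54.3 and 86.5 in the fhod-1(tm2363) libraries. A low unc-120(st364) replicate 2 was the main departure, at 38.6 against 78.4 or more in the rest of its group.

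GRL-7, the product of grl-7 (WBGene00001716, chromosome V, 11344831 to 11347012, minus strand), is found in the matrix on the outer face of epithelia. Levels of grl-7 were 94.1, 33.8, 81.2 and 38.0 in the wild-type libraries, 76.2, 36.7, 88.5 and 72.6 in the unc-120(st364) libraries and 58.2, 63.8, 39.3 and 77.0 in the fhod-1(tm2363) libraries. In wild type, replicates 1 and 3 were more than 2 times as high as replicates 2 and 4. Other ground-like genes were lower, down to grl-8 at a mean of 0.997. They included grl-2 (2.17), whose reporter marks the duct and pore of the excretory system, and grl-10 (24.2), which overlaps the ribosomal protein gene rpl-39. The strand setting of the counting is not given in the sources used here, so reads of overlapping genes could have been mixed.

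Among groundhog genes, grd-5 (WBGene00001694, chromosome V, 8619032 to 8619869, plus strand) had the highest mean. Its levels were 477, 178, 178 and 297 in the wild-type libraries, 317, 283, 179 and 151 in the unc-120(st364) libraries and 219, 212, 190.5 and 162 in the fhod-1(tm2363) libraries. Wild-type replicate 1 was the highest, and the lowest library was unc-120(st364) replicate 4. A grd-10 reporter marks the seam, as one of wrt-2 does, but grd-10 (WBGene00001699, chromosome IV, 3441055 to 3441770, plus strand) did not follow wrt-2 from library to library. It was at 152, 242, 144 and 287 in the wild-type libraries, 229, 335, 186 and 186 in the unc-120(st364) libraries and 225, 195, 255 and 197 in the fhod-1(tm2363) libraries. On deposited values its highest library, unc-120(st364) replicate 2, was the lowest for wrt-2. The lowest for grd-10, wild-type replicate 3, was the highest wild-type library for wrt-2. After length correction grd-10 was still highest in unc-120(st364) replicate 2 (8.25 on the log2 scale) but lowest in wild-type replicate 1 (7.31). Corrected wrt-2 was lowest in wild-type replicate 2 (4.96), with 5.17 in unc-120(st364) replicate 2. Nearby on the same strand, grd-13 (WBGene00001702, chromosome IV, 3438312 to 3439503, plus strand) was at 55.5, 102, 80.4 and 83.9 in the wild-type libraries, 91.3, 71.0, 122 and 124 in the unc-120(st364) libraries and 105, 97.9, 117 and 143 in the fhod-1(tm2363) libraries. Wild-type replicate 1 was lowest and fhod-1(tm2363) replicate 4 highest. The middle gene of that row, grd-3, likewise had its lowest value, 49.9, in wild-type replicate 1, where the other 11 libraries lay between 79.6 and 114.

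The families with a single gene differed from each other. Loss of qua-1 is known to impair molting, and qua-1 (WBGene00004264, chromosome II, 8198803 to 8204001, plus strand) was at 65.3, 42.1, 96.4 and 33.1 in the wild-type libraries, 69.7, 30.7, 96.4 and 86.9 in the unc-120(st364) libraries and 53.3, 50.5, 36.8 and 83.6 in the fhod-1(tm2363) libraries. On deposited values replicate 3 was the highest wild-type library and replicate 4 the lowest, a ratio of 2.91. The lowest library of all was then unc-120(st364) replicate 2. After length correction the lowest library for qua-1 was wild-type replicate 2 (5.33 on the log2 scale), with 5.61 in unc-120(st364) replicate 2. The residual SD of qua-1 was 0.64 before and 0.39 after correction. In contrast, hog-1 (WBGene00001984, chromosome X, 5851954 to 5854260, minus strand, overlapped on the other strand by W06B11.10 and atat-2) was at 24.5, 8.35, 11.5 and 12.2 in the wild-type libraries, 17.7, 11.7, 10.1 and 8.85 in the unc-120(st364) libraries and 11.3, 10.9, 8.65 and 8.97 in the fhod-1(tm2363) libraries. Replicate 1 was the highest library in each of the 3 groups. The labels do not tie libraries of the same number to a shared batch or day.

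**Figure D2:**
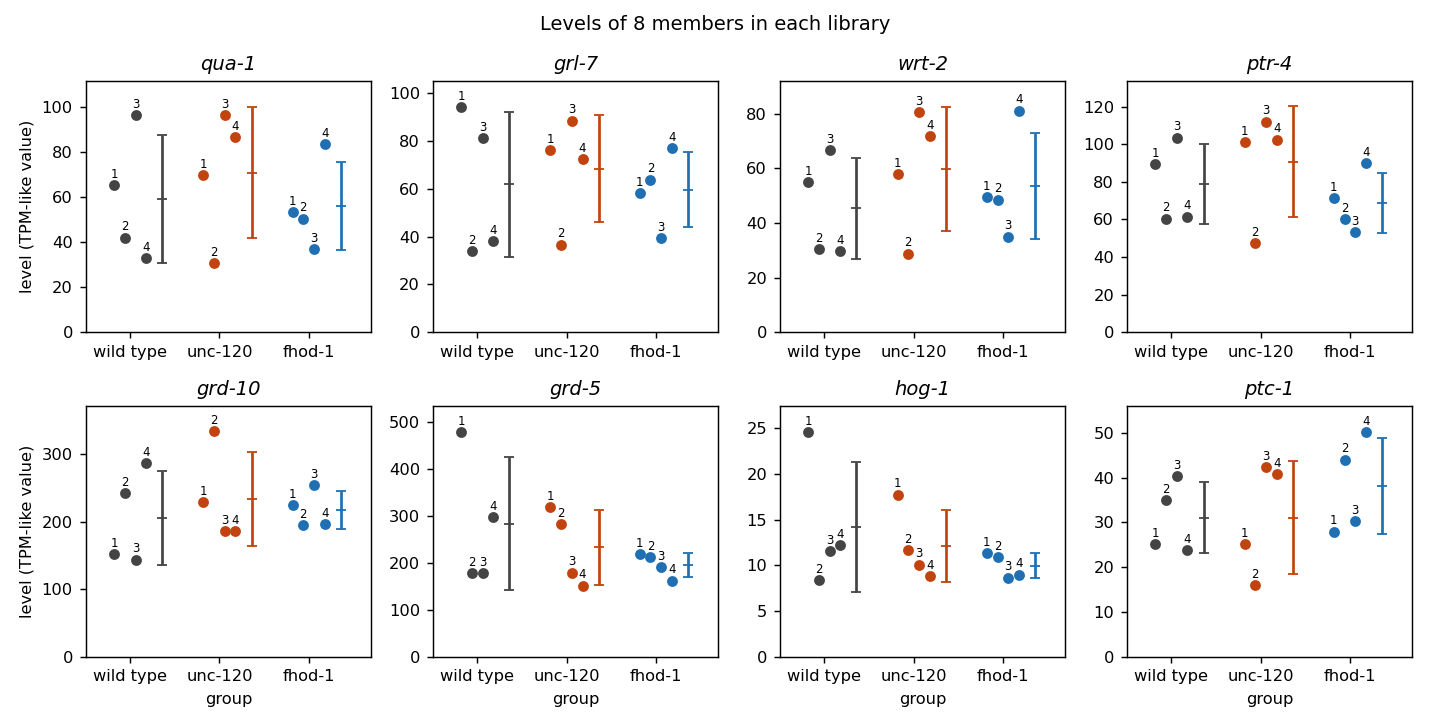
Deposited TPM-like level of 8 members in each library (points numbered by replicate), with the group mean and SD to the right of the points. qua-1, grl-7, wrt-2 and ptr-4 were low in wild-type replicates 2 and 4, unc-120(st364) replicate 2 and fhod-1(tm2363) replicate 3, grd-5 and hog-1 were highest in wild-type replicate 1, and the groups overlap for every gene shown.

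All 3 patched genes were tested, at different levels. The gene ptc-1 (WBGene00004208, chromosome II, 7893229 to 7900510, plus strand) is known for its part in the division of germline cells. Its levels were 25.1, 34.98, 40.4 and 23.9 in the wild-type libraries, 25.2, 16.03, 42.3 and 40.8 in the unc-120(st364) libraries and 28.0, 44.0, 30.3 and 50.2 in the fhod-1(tm2363) libraries. A lower gene, ptc-2 (WBGene00004209, chromosome II, 6083628 to 6085858, minus strand), with 3.42, 5.29, 5.39 and 3.43 in the wild-type libraries, 3.60, 2.35, 5.46 and 5.87 in the unc-120(st364) libraries and 3.83, 6.54, 4.28 and 7.41 in the fhod-1(tm2363) libraries, was low and high in nearly the same libraries. On deposited values both were lowest in unc-120(st364) replicate 2 and highest in fhod-1(tm2363) replicate 4. After length correction ptc-1 was still lowest in unc-120(st364) replicate 2 but highest in fhod-1(tm2363) replicate 2. Corrected ptc-2 was still highest in fhod-1(tm2363) replicate 4 but lowest in unc-120(st364) replicate 1. The residual SD was 0.480 before and 0.163 after correction for ptc-1, and 0.396 and 0.210 for ptc-2. Osmoregulation and sterol balance need ptc-3 (WBGene00004210, chromosome II, 2845384 to 2852593, minus strand, overlapped on the same strand by Y110A2AL.19). It was at 59.3, 30.4, 46.7 and 24.8 in the wild-type libraries, 42.7, 22.3, 51.9 and 43.5 in the unc-120(st364) libraries and 30.98, 32.6, 19.2 and 41.2 in the fhod-1(tm2363) libraries. The pattern of ptc-3 was another one, with the highest value in wild-type replicate 1 and the lowest in fhod-1(tm2363) replicate 3, also after length correction.

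The leading patched-related gene was ptr-4 (WBGene00004219, chromosome X, 6060754 to 6065986, minus strand), which is needed for molting and for the matrix that precedes the cuticle. Its levels were 89.4, 60.5, 103.5 and 61.5 in the wild-type libraries, 101, 47.4, 112 and 102 in the unc-120(st364) libraries and 71.5, 60.3, 53.2 and 90.05 in the fhod-1(tm2363) libraries. In unc-120(st364), replicate 2 lay at 47.4 and the others between 101 and 112. The gene ptr-23 (WBGene00004237, chromosome I, 14909240 to 14913083, plus strand) acts with the mucin-like osm-8 in the response to osmotic stress. It was at 48.5, 42.3, 40.9 and 39.0 in the wild-type libraries, 53.97, 28.1, 59.1 and 55.6 in the unc-120(st364) libraries and 45.2, 56.1, 36.4 and 59.9 in the fhod-1(tm2363) libraries. With 35.6, 29.97, 38.5 and 36.3 in the wild-type libraries, 41.2, 26.7, 41.9 and 44.2 in the unc-120(st364) libraries and 33.8, 40.6, 28.2 and 42.9 in the fhod-1(tm2363) libraries, ptr-14 (WBGene00004228, chromosome IV, 10615427 to 10620958, plus strand) was the steadiest of the 3. Both shared the low unc-120(st364) replicate 2 with ptr-4, and outside that library ptr-14 stayed between 28.2 and 44.2. Of the other 19 tested patched-related genes, 8 had a mean of at least 10, with ptr-8 (28.0) and ptr-1 (27.03) the highest. They included ptr-18 (10.8), known to take up GRL-7 in arrested first-stage larvae, and ptr-10 (12.6), whose reporter marks glia. The lowest tested were ptr-19 (0.926) and ptr-17 (0.854).

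Libraries of the same genotype differed widely for this family. The median residual SD of the 60 tested members was 0.38 on the log2 scale, against 0.24 over all 12831 genes tested, and 41 of the 60 were among the 25% most variable genes of their own level. In wild type, 27 of the 60 members differed at least 2-fold between the highest and the lowest of the 4 libraries, against 17.4% of all genes tested. The number was 42 in unc-120(st364) (29.2% of all genes) and 11 in fhod-1(tm2363) (8.99%). The classes differed in where this spread lay. In unc-120(st364), 22 of 25 receptor-like and 20 of 35 ligand-like members passed 2-fold. In wild type the counts were 5 receptor-like and 22 ligand-like members.

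For receptor-like genes the spread was smaller after correction for gene length. Their mean deviation from the gene means, on log2(value + 1), was -0.62 in unc-120(st364) replicate 2, the library with the steepest negative length slope. That library was the lowest of 12 for 19 of the 25, where it was the lowest for 37.5% of all genes tested. After length correction the deviation there was -0.05 and the median residual SD of receptor-like genes was 0.23, against 0.38 before. For ligand-like genes it was 0.37 after correction and 0.38 before. Over all genes the correction lowered the median from 0.24 to 0.17. Long ligand-like genes were also low in unc-120(st364) replicate 2. There the deposited mean deviation was -0.58 for the 12 of at least 1500 bases and -0.09 for the 23 shorter ones. Over all genes tested with a length it was -0.47 for the 5646 of at least 1500 bases and 0.001 for the 7148 shorter ones. Low values of long genes in that library were thus not particular to the family. The part of gene length in the spread of either class was not tested.

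**Figure D3:**
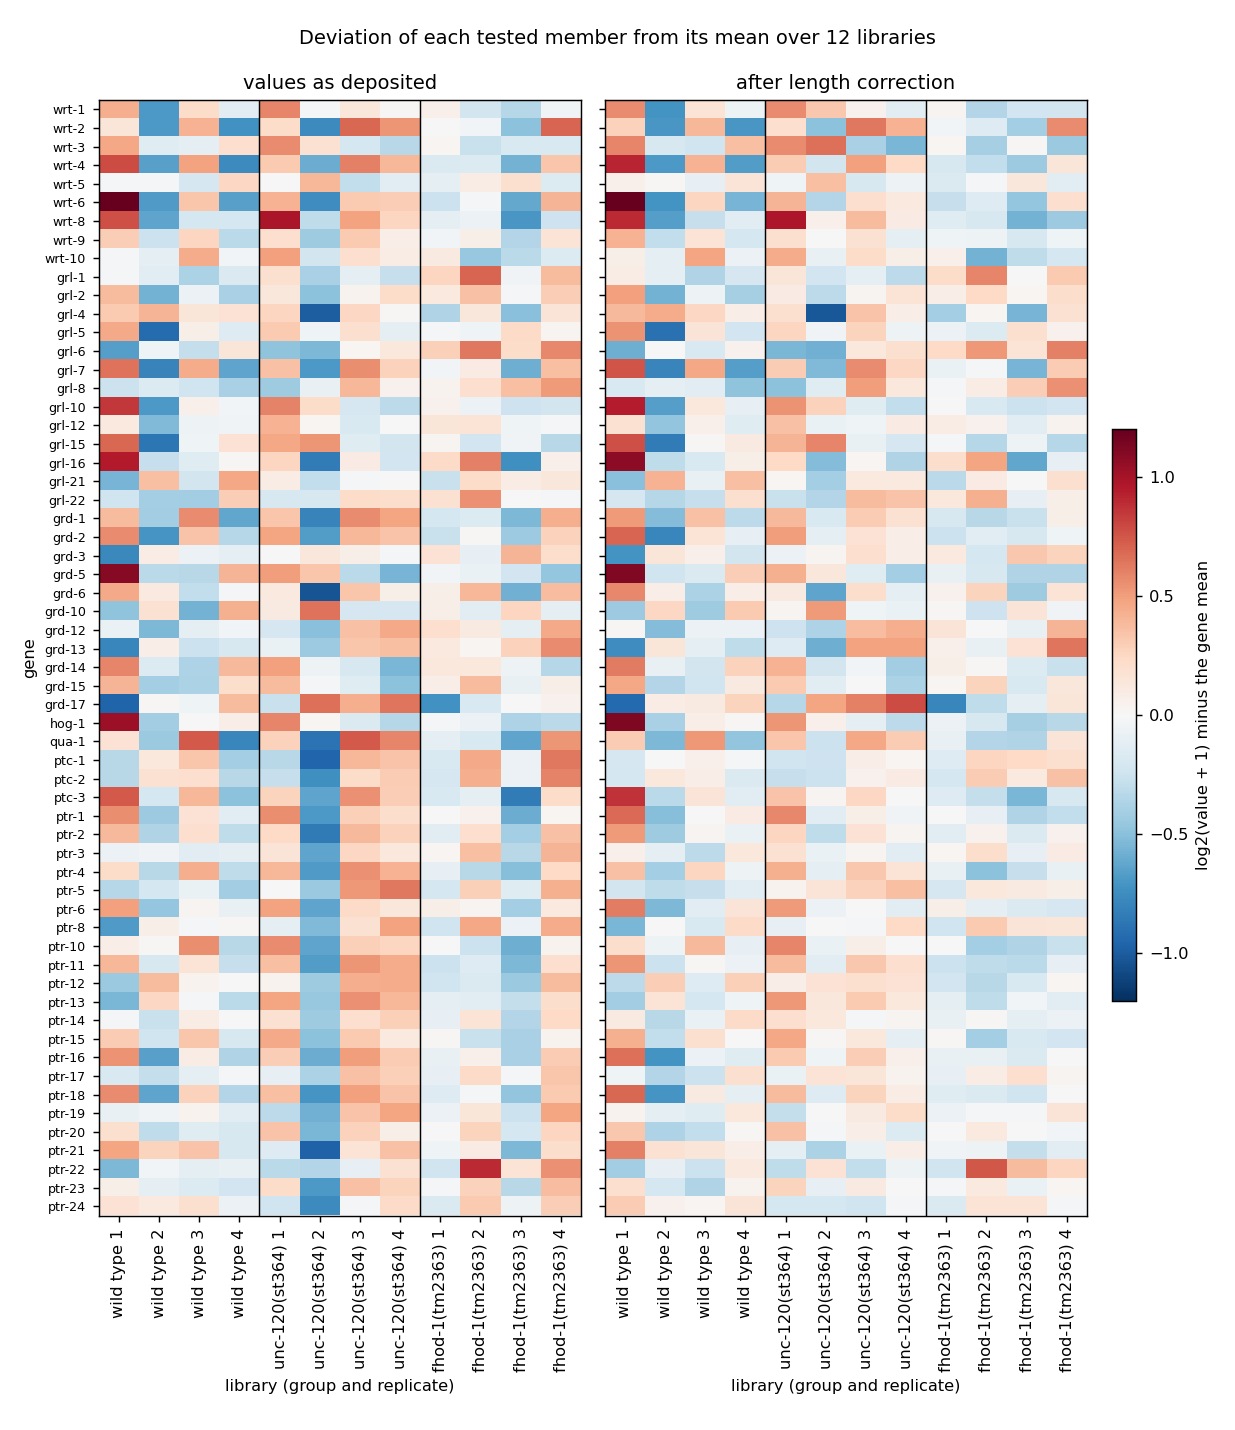
Deviation of each of the 60 tested members from its own mean over 12 libraries, as the difference in log2(value + 1), for deposited values (left) and after correction for exonic length (right). Red is above and blue below the gene mean, and the blue column of unc-120(st364) replicate 2 among ptr genes is largely absent on the right, whereas wild-type replicates 1 and 2 keep opposite colours.

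For ligand-like genes the extremes after length correction were wild-type libraries. Their corrected mean deviation was 0.33 in wild-type replicate 1 and -0.32 in wild-type replicate 2, and in the other 10 libraries it lay between -0.17 and 0.20. Before correction these wild-type values were 0.24 and -0.33, and unc-120(st364) replicate 1 was as high as wild-type replicate 1, at 0.24. On corrected values, wild-type replicate 2 was the lowest library for 25 of the 60 members (16 ligand-like and 9 receptor-like), against 5.76% of all genes. Wild-type replicate 1 was the highest for 26, against 20.8% of all genes. Exceptions ran the other way, and grl-6, grl-21, grd-3, grd-13 and grd-17 were lowest in wild-type replicate 1 on deposited values.

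Genes that carry out the molt were also high in wild-type replicate 1 and low in replicate 2, but parted from the mean of ligand-like genes in replicate 3. That corrected mean was 0.02 in replicate 3, with 0.14 for wrt, -0.02 for grl and -0.09 for grd genes. The 22 tested genes of a list of molting effectors (collagens, matrix proteins and proteases made for each new cuticle) had a corrected mean deviation of 0.39 in wild-type replicate 1, -0.31 in replicate 2, 0.31 in replicate 3 and -0.27 in replicate 4. In unc-120(st364) these were 0.30, -0.19, 0.39 and 0.16. In fhod-1(tm2363) they were -0.09, -0.35, -0.34 and 0.02, where the ligand-like means were -0.05, -0.05, -0.17 and 0.06. The summed level of the list ran from 2869 to 5654 over the wild-type libraries, from 2833 to 5672 over those of unc-120(st364) and from 2880 to 4505 over those of fhod-1(tm2363). The part of the molting cycle in the spread of the family was not tested, since the labels give no more than the larval stage.

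**Figure D4:**
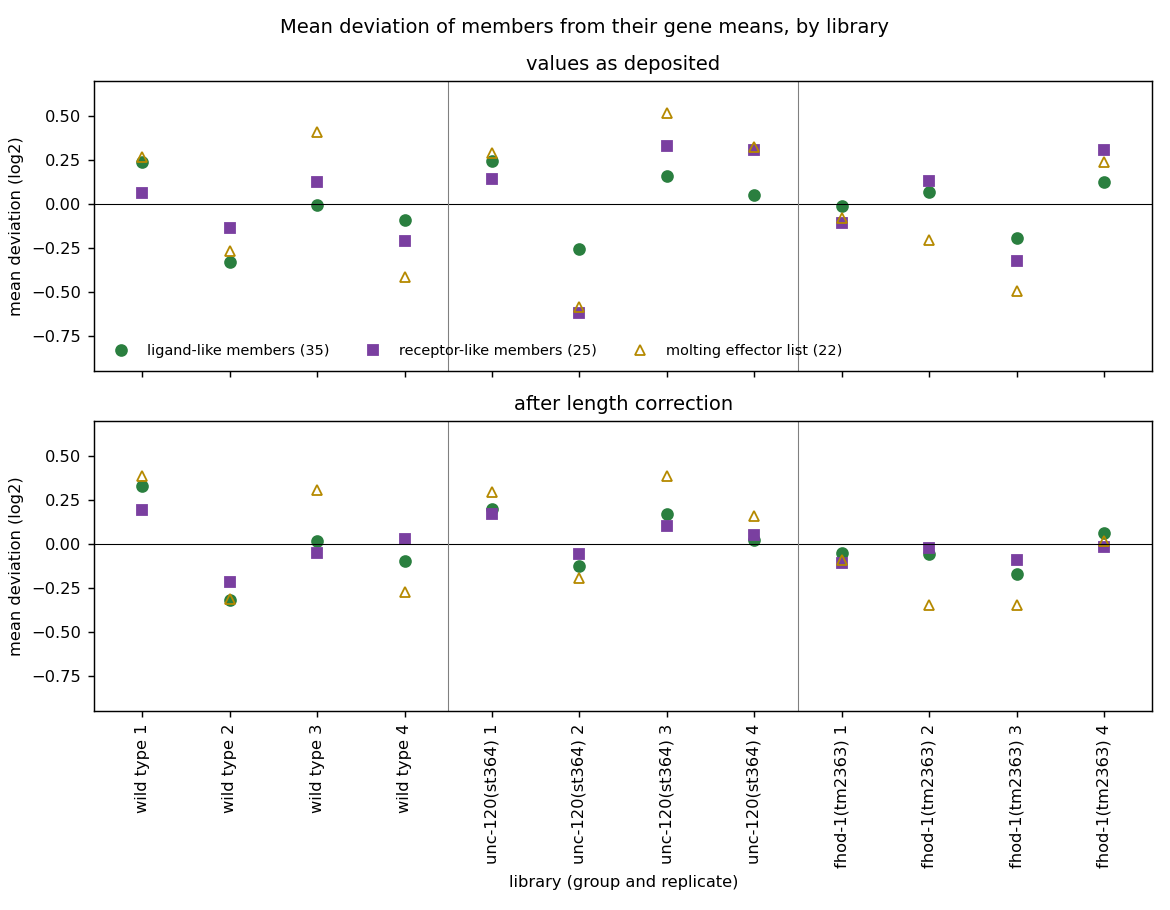
Mean deviation from the gene means, in log2 units, of 35 ligand-like members, 25 receptor-like members and 22 molting effector genes in each library, for deposited values (top) and after length correction (bottom). The receptor-like mean of -0.62 in unc-120(st364) replicate 2 becomes -0.05, and the ligand-like means of wild-type replicates 1 and 2 go from 0.24 and -0.33 to 0.33 and -0.32.

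No hedgehog-related or patched-related gene passed the test between unc-120(st364) and wild type on deposited values. Of 12831 genes tested with limma, 154 (1.2%) passed at an adjusted p under 0.05 (67 up, 87 down), among them 0 of the 60 members. At an unadjusted p under 0.05 the counts were 0 members and 8.2% of all genes. In 0 members did the 4 libraries of one group lie apart from the 4 of the other, against 4.21% of all genes (2.17% higher in the mutant and 2.04% lower). Fold changes on the log2(value + 1) scale, which understates changes of low genes, ran from -0.38 for ptr-21 to 0.52 for grd-17, with a median of 0.12 against 0.02 for all genes, and 45 of 60 were above 0 against 53.8% of all genes. The median 95% interval reached 0.51 to either side of a member's value, against 0.36 over all genes. For qua-1 the value was 0.26 (95% interval -0.54 to 1.05). It was 0.17 (95% interval -0.40 to 0.74) for ptr-4, 0.07 (95% interval -0.32 to 0.46) for wrt-10 and -0.07 (95% interval -0.68 to 0.55) for ptc-1.

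After correction for length, 1 member passed in that comparison, ptr-5 (WBGene00004220, chromosome X, 17318584 to 17326603, plus strand), a patched-related gene of moderate level. Its deposited levels were 3.62, 4.06, 4.56 and 3.40 in the wild-type libraries, 4.87, 3.32, 7.43 and 8.12 in the unc-120(st364) libraries and 4.08, 6.16, 4.30 and 6.88 in the fhod-1(tm2363) libraries. The groups overlapped, since unc-120(st364) replicate 2 was the lowest of its group. On the corrected log2 scale it was at 2.34, 2.25, 2.28 and 2.42 in wild type and 2.60, 2.71, 2.83 and 2.92 in unc-120(st364). All 4 corrected values of the mutant lay above those of wild type, and ptr-5 rose by 0.44 (SE 0.0948) with a limma adjusted p of 0.0250, against 0.678 for deposited values. Over the 32 alternatives tried for this gene the limma adjusted p ran from 0.0132 to 1.00. Among all genes 345 of 12794 (2.7%) passed after correction, and 14.7% had an unadjusted p under 0.05 against 4 members. The call was lost without unc-120(st364) replicate 3 or 4 or wild-type replicate 2 or 3. The count of 345 fell to 214 without wild-type replicate 2, 212 without unc-120(st364) replicate 3 and 211 without replicate 4, and was 521 without wild-type replicate 4. Groups of corrected values lay apart for 3 members, against 7.77% of all genes. In the mutant ptr-5 was the higher one (3.71% of all genes), and ptr-21 and ptr-24 were lower (4.06%). For ptr-21 (WBGene00004235, chromosome I, 550696 to 556638, plus strand, overlapped on the same strand by Y65B4BR.11) the corrected fold change was -0.38 (SE 0.13), with a limma adjusted p of 0.158. These genes were named after their values were seen.

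**Figure D5:**
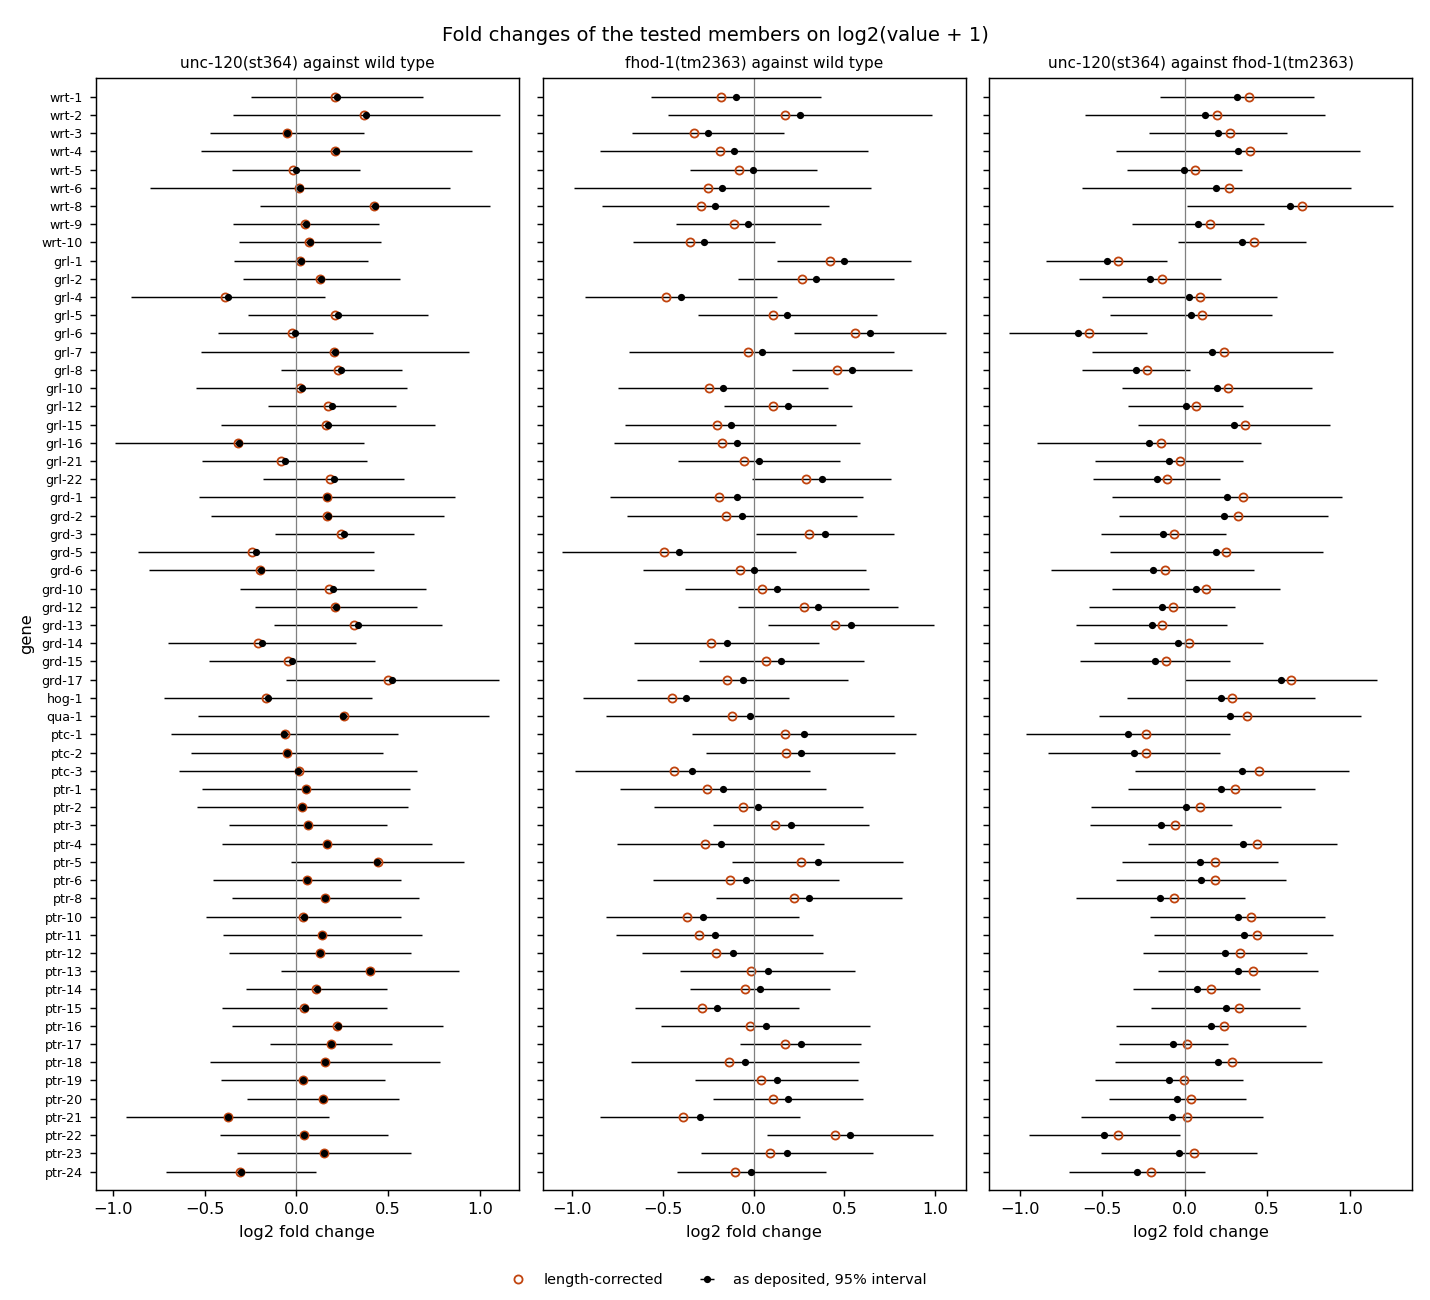
Log2 fold changes of the 60 tested members in the 3 comparisons, on log2(value + 1), as deposited (black, with 95% intervals from the limma fit over 12 libraries) and after length correction (open circles). No value reaches 1 in either direction, and most intervals include 0.

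Between fhod-1(tm2363) and wild type the family again gave no call, in a comparison with more of them. Limma called 671 of 12831 genes (5.23%; 495 up, 176 down), and 0 of the 60 members. With upper-quartile scaling the split over all genes was 358 higher and 305 lower, and after length correction 1094 and 1145. Without wild-type replicate 1, 2 or 3 the count was 350, 330 or 308, and without fhod-1(tm2363) replicate 2, 3 or 4 it was 239, 348 or 334. At an unadjusted p under 0.05 there were 6 members, against 22.5% of all genes. The median fold change was 0.0016 over the members and 0.07 over all genes, and 30 of 60 members were above 0 against 59.8% of all genes. After length correction 17.5% of all genes passed and 0 members, with 7 members at an unadjusted p under 0.05 against 35.5%. Without wild-type replicate 1, 2 or 3 the corrected count of 2239 was 1434, 1312 or 1327, and without fhod-1(tm2363) replicate 2, 3 or 4 it was 838, 1042 or 977.

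The members nearest to a call were low ground-like genes, described here after their values were seen. The gene grl-8 (WBGene00001717, chromosome V, 6731831 to 6733092, minus strand) was at 0.636, 0.745, 0.653 and 0.491 in the wild-type libraries, 0.453, 0.835, 1.57 and 1.03 in the unc-120(st364) libraries and 1.01, 1.25, 1.502 and 1.79 in the fhod-1(tm2363) libraries. Its 4 fhod-1(tm2363) values lay above the 4 wild-type values, with a limma adjusted p of 0.0563. The fold change was 0.54 (SE 0.15) on log2(value + 1), which understates changes at such low levels. Group means were 0.631 for wild type and 1.39 for fhod-1(tm2363). The wild-type libraries held an estimated 14.1 to 17.8 reads of grl-8. The gene grl-6 (WBGene00001715, chromosome X, 6449959 to 6450939, minus strand) was at 1.72, 3.15, 2.52 and 3.73 in the wild-type libraries, 2.07, 1.95, 3.37 and 3.69 in the unc-120(st364) libraries and 4.24, 5.67, 3.99 and 5.38 in the fhod-1(tm2363) libraries. It was also higher in all 4 mutant libraries, by 0.64 (SE 0.20), with a limma adjusted p of 0.0733. Members with groups that lay apart were these 2, both higher in the mutant, against 10.8% of all genes that were higher, 4.7% that were lower and 15.5% in either direction. For grl-1 (WBGene00001710, chromosome V, 5530725 to 5533845, minus strand, overlapped on the other strand by C24G6.2) the fold change was 0.50 (SE 0.17) with a limma adjusted p of 0.106, and fhod-1(tm2363) replicate 3 (4.85) was below wild-type replicate 1 (4.96). Without wild-type replicate 4, grl-6 passed (limma adjusted p = 0.0392), as it did without unc-120(st364) replicate 2 (0.0497). The adjusted p of grl-8 in limma was 0.0338 without unc-120(st364) replicate 1, 0.0344 without its replicate 3 and 0.0498 without fhod-1(tm2363) replicate 1. Over the alternatives the limma adjusted p ran from 0.0241 to 0.248 for grl-8 and from 0.0254 to 0.221 for grl-6. After length correction the limma adjusted p was 0.103 for grl-8, 0.0667 for grl-6, 0.0536 for grl-1 and 0.0509 for ptr-21. On corrected values ptr-21 was lower in all 4 mutant libraries, with a log2 fold change of -0.39 (SE 0.13), and 3 members had groups that lay apart, against 23.9% of all genes. Of these, grl-6 and grl-8 were higher in the mutant (10.9% of all genes) and ptr-21 was lower. Among the highest members the deposited fold change was -0.27 (95% interval -0.66 to 0.12) for wrt-10, -0.41 (95% interval -1.06 to 0.23) for grd-5 and -0.18 (95% interval -0.75 to 0.39) for ptr-4.

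The mutants were also compared with each other, and the wild-type comparisons above share their control libraries. Limma called 253 genes (1.97%), of which 59 were up in unc-120(st364) and 194 down, and 0 of the 60 members. Without fhod-1(tm2363) replicate 2 the count was 151. At an unadjusted p under 0.05 there were 4 members, against 12.8% of all genes. Among members, grl-6 alone had groups that lay apart (8.24% of all genes, 6.07% lower in unc-120(st364)), at 2.77 ± 0.890 (SD, n = 4) for unc-120(st364) against 4.82 ± 0.826 for fhod-1(tm2363), with a fold change of -0.65 (SE 0.20) and a limma adjusted p of 0.131. The warthog gene wrt-8 (WBGene00006954, chromosome V, 15342056 to 15344572, minus strand) had a fold change of 0.64 (SE 0.29) with a limma adjusted p of 0.377. Its levels were 10.2, 3.59, 6.90 and 5.74 in the unc-120(st364) libraries, with 4.20, 4.39, 2.48 and 3.75 for fhod-1(tm2363). The groups overlapped through unc-120(st364) replicate 2. After length correction 5.16% of all genes and 0 members passed, with 12 members at an unadjusted p under 0.05 against 22.3% of all genes. The corrected groups lay apart for 4 members, ptc-3, ptr-12, ptr-13 and wrt-8, all higher in unc-120(st364), against 8.34% of all genes that were higher, 7.01% that were lower and 15.4% in either direction. The corrected count of 660 genes was 399 without unc-120(st364) replicate 3 and 279, 322 or 337 without fhod-1(tm2363) replicate 2, 3 or 4.

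Genes that work beside the family gave no call either, with 1 exception among molting regulators. A list of 16 genes of the wider pathway held relatives of dispatched (che-14), patched (daf-6), the acyltransferase for Hedgehog (hhat-1 and hhat-2) and the transcription factor Gli (tra-1), with sterol-sensing proteins and proteoglycan enzymes. Of its 15 tested genes limma called 0 in each of the 3 comparisons, and 0, 1 and 2 had an unadjusted p under 0.05 in the order above. The shares over all genes were 8.2%, 22.5% and 12.8%. The acyltransferase gene hhat-1 was at 31.7, 32.8 and 28.5, as means of the wild-type, unc-120(st364) and fhod-1(tm2363) groups. The endocytic receptor gene lrp-1, needed for molting, was at 16.7, 19.9 and 17.1 in the same order, and tra-1 at 2.45, 2.63 and 2.85. Of 14 molting regulators, lin-28, which times larval fates, rose from 15.0 ± 3.24 (SD, n = 4) in wild type to 23.7 ± 3.95 in fhod-1(tm2363) (log2 fold change 0.64, SE 0.16, limma adjusted p = 0.0355). The other 13 did not pass in any comparison, nor did any of the 22 tested molting effectors. The nuclear receptor gene nhr-23, a driver of the molting cycle, was at 8.70, 10.3 and 8.44 as means of wild type, unc-120(st364) and fhod-1(tm2363).

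Few markers of the tissues in a larva passed the test. Over all genes, 1.2% passed for unc-120(st364) and 5.23% for fhod-1(tm2363), each against wild type, and 1.97% between the mutants. Of 12 tested genes of hypodermis and seam, 1 rose in fhod-1(tm2363), the seam gene ceh-16, from 1.31 ± 0.573 to 2.95 ± 0.216 (limma adjusted p = 0.0178). The summed level of this list was 699 to 1187 over the wild-type libraries, 1034 to 1326 over those of unc-120(st364) and 924 to 1139 over those of fhod-1(tm2363). Of 6 tested glial genes limma called 0 in each comparison. Among other tissues, 1 of 10 neuronal genes passed, unc-119, at 2.95 as the wild-type mean and 10.5 as that of fhod-1(tm2363) (limma adjusted p = 1.22e-05), with a mean of 3.36 in unc-120(st364) that was below the other mutant (limma adjusted p = 3.32e-05). Of the pharyngeal genes 1 of 9, phat-1, was higher in fhod-1(tm2363) than in wild type (limma adjusted p = 0.0470). Limma called 0 genes of the muscle (12 tested), intestine (9), germline (10) and sperm and adult (2 of 10 tested, the other 8 below 1 throughout) lists. Of the 12 muscle genes 5 had an unadjusted p under 0.05 between unc-120(st364) and wild type, against 8.2% of all genes. The median log2 fold change over the list was -0.52. Between the mutants it was 7, against 12.8% of all genes, with a median of -0.58. The myosin gene unc-54 was at 189 as the unc-120(st364) mean and 397 as that of wild type (limma adjusted p = 0.150). The summed level of the muscle list was 1958 to 2613 over the wild-type libraries, 1187 to 1960.3 over those of unc-120(st364) and 1969.7 to 2744 over those of fhod-1(tm2363). Between fhod-1(tm2363) and wild type, 7 of the 10 neuronal genes had an unadjusted p under 0.05 (median log2 fold change 0.52), as did 4 of the 9 pharyngeal genes (median 0.62). The share over all genes in this comparison was 22.5%. The summed neuronal level was 321 to 345 in wild type, 294 to 499.8 in unc-120(st364) and 414 to 569 in fhod-1(tm2363). The part of these tissues in the family's values was not tested.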

How the data were processed

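Polyadenylated RNA of whole L3 larvae was sequenced in 12 stranded mRNA libraries (Illumina TruSeq Stranded mRNA kit), per the labels' protocols. The submitters' processing notes name Bowtie2 2.2.5, Partek and the genome build WBcel235. The counting tool, its strand setting and the annotation are not given in the sources used here. The deposited table holds 1 normalized value per gene and library, and the authors scaled it to the same total of 638200 in each library. Values multiplied by exonic gene length (Ensembl release 115, WBcel235) piled up at 1 step per library among genes above 0 in at most 3 libraries, with 38.5% to 52.4% of those values at the step. The deposited unit was therefore treated as TPM, up to a constant shared by all libraries. Deposited gene starts equalled those of release 115 for 55.85% of genes and gene ends for 55.6%. The lengths used can thus differ from those behind the deposited values. For wrt-3 the length used, 2438 bases, is longer than its deposited span from 9475863 to 9477446. The estimated reads and the length correction carry this error. Whole reads were not recovered, since only 29.2% to 33.6% of low values lay within 0.1 of a whole multiple where 20.0% is given by chance, and no count model was used.

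Values were analysed as log2(value + 1), that is with a pseudocount of 1. A gene was tested when 4 or more of the 12 libraries held a value of 1 or higher, which 12831 did. The filter suits a length-scaled unit with a median value of 1.31. The fit used limma 3.58.1 under R 4.3.3, with a coefficient for each group, all 12 libraries together and eBayes with its trend option. Calls were made at 0.05 after Benjamini-Hochberg adjustment over all genes tested. Tables were read with Python 3.11.15 (pandas 2.3.3, numpy 2.4.6) and drawn with matplotlib 3.10.9. The length correction subtracts, in each library, a loess curve (span 0.5, degree 1) of its deviations on log2 exonic length, for the 12794 tested genes with a length. The procedure was tested on simulated data. The 12 libraries were compared for duplicates, and the closest, unc-120(st364) replicates 3 and 4, differed by more than the estimated counting noise.

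Genes named were all ptc genes, hog-1 and qua-1, the 3 of highest mean in each of the wrt, grl, grd and ptr families, the 5 of largest residual SD, any called member, and called genes of the pathway and molting lists. Others named with values were chosen after their values were seen. The members, the lists and the rule for naming were chosen with earlier results of these data known. Alternatives tried were other pseudocounts and filters, upper-quartile scaling, the length correction, fits to the compared groups alone, the replicate number as a block and leaving out each library in turn. Leaving out libraries together with the length correction was added after the data were seen. Promoter and protein sequences were not used here.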

Additional observations from a re-analysis of the deposited data

Results flagged for a closer look

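In 90 sets of 4 libraries (30 named genes in 3 groups), the gap of the most extreme library to its neighbour was set against the range of the set, and a ratio above the critical value of Dixon's test marked a library that stood apart. This marked 6 sets. Chance alone marks about 1 in 20 of independent, unselected sets. That rate does not apply here, since some of these genes were taken for a large residual SD or after their values were seen. The sets of a group also share their libraries. In wild type, wrt-10 was at 435 in replicate 3 and between 294 and 313 in the others (ratio 0.84), and ptr-22 was at 1.37 in replicate 1 and between 2.21 and 2.39 in the others (0.849).

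The other 4 concerned unc-120(st364) replicate 2, which was low each time. The gene ptr-4 was at 47.4 there and between 101 and 112 in the other unc-120(st364) libraries (ratio 0.88). For ptr-23 the values were 28.1 and 53.97 to 59.1 (0.876), for ptr-14 26.7 and 41.2 to 44.2 (0.858), and for wrt-6 3.38 and 8.004 to 8.85 (0.89). This library also had the steepest negative slope of level on gene length, -0.26, and these genes are long, with exonic lengths from 1969 bases (wrt-6) to 3425 bases (ptr-23). After length correction the mean deviation of receptor-like genes in this library was -0.05 on the log2 scale, against -0.62 before. All tested genes of at least 1500 bases had a deposited mean deviation of -0.47 in this library. On corrected log2 values this library was still the lowest of its group for wrt-6 (2.52 against 3.00 to 3.29) and ptr-4 (6.17 against 6.435 to 6.70). The same held for ptr-23 (5.46 against 5.55 to 5.82), but not for ptr-14 (5.34 against 5.21 to 5.42). The part of gene length in these low values was not tested.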

How the results depend on the processing

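Of 2943 values for named members under the alternatives, 2902 kept their side of the threshold and 41 passed it where the main value did not, with the same sign. The sign of the fold change differed from the main one in 208 of them, all of members not called by either, with adjusted p of 0.297 or more in limma. These came from 40 of the 90 fold changes of named members, whose main values reached at most 0.26 in size, so no direction is read from those. The counts of genes called were 154 for unc-120(st364) and 671 for fhod-1(tm2363), each against wild type, and 253 between the mutants. They moved by over 1.5 times under 3 of the settings that kept all 12 libraries, and under several that left out 1 library. With a minimum of 10 in place of 1 they were 43, 217 and 85, over fewer genes. After length correction they were 345, 2239 and 660, and with the replicate block added 705, 3435 and 1327. Members called, 0 in each comparison, became 1 in the first after length correction (ptr-5) and 1 in the second when only the groups compared were fitted (grl-8). The shares of all genes called in these fits were 2.7% and 6.04%. Upper-quartile scaling, pseudocounts of 0.5 and 5 and no filter gave 0 members in each comparison. Without 1 library at a time the gene counts ran from 109 to 171, 239 to 986 and 151 to 292, and members called from 0 to 0, 0 to 1 and 0 to 0. With the length correction as well, the gene counts ran from 211 to 521, 838 to 2666 and 279 to 895, and members called from 0 to 1, 0 to 2 and 0 to 3. The cause of these shifts was not tested.

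Replicate numbers share no stated batch, and the deviations of same-numbered libraries correlated at -0.651 to 0.806, over 0.1 in 5 of 12 pairs. All 3 pairs of replicate 1 were at 0.467 to 0.61. After length correction the range was -0.326 to 0.66, again with 5 of 12 over 0.1. A library correlated best with its own number in 9 of 24 lookups, and in 11 of 24 after length correction. Each lookup took the best of 4 libraries, so 1 in 4 would match by chance. The lookups share libraries, so no pairing is read from these counts. With the replicate block the gene counts were 188 (1.47% of genes tested), 947 (7.38%) and 311 (2.42%). Members called, of 60, were then 0, 2 (grl-6 and grl-8) and 1 (grd-17). With the block and the length correction together, 5.51%, 26.8% and 10.4% of all genes passed. Members called there, of 60, were 2 (grd-17 and ptr-5) and 7 (grl-1, grl-6, ptr-5, ptr-10, ptr-15, ptr-21 and ptr-22) against wild type. Between the mutants they were 6 (grd-17, grl-6, ptr-4, ptr-10, ptr-15 and wrt-8). The 95% interval of a member reached a median of 0.51 to either side on the log2 scale, which limits the differences that 4 libraries a group can show for a typical member. The read depth is an estimate, and the genes near a level of 1 rest on few reads.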
